A study of Mus musculus with 18 samples.

Results

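The genes described here are 10 core components and regulators of the mTOR pathway: Mtor, Rptor, Rictor, Deptor, Rheb, Tsc1, Tsc2, Ddit4, Sesn1 and Sesn2. They were chosen by name, as the rows of the count table that carry these symbols, and make up 10 of 32285 genes. All 10 passed the filter on low counts, which left 16034 genes. RNA sequencing was done on regions cut out of frozen kidney sections from male C57BL/6 iKspCre-Pkd1del mice, a model of polycystic kidney disease. Cre recombinase in these mice is kidney-specific and is switched on by tamoxifen, given by oral gavage at 12.5 mg/kg on postnatal days 18 and 19, and it removes the floxed stretch of Pkd1. Animals were killed at the mild cystic phase, followed by magnetic resonance imaging.

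There were 3 groups: non-cystic regions, cystic regions with little F4/80 (F4/80-low) and cystic regions with much F4/80 (F4/80-high). F4/80 is a macrophage surface protein. Each group had 6 libraries, 2 from each of the same 3 kidneys. All groups, the non-cystic reference included, come from kidneys with the Pkd1 deletion, so no comparison here is between mutant and wild-type tissue. Kidneys 1 and 3 carry a labelled age of 269 and kidney 2 of 297, with no unit. The labels number the kidneys without saying that they came from separate mice. The p-values measure how differences between regions vary among these kidneys.

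The mTOR kinase works in a pair of complexes. Complex 1, built with Raptor (Rptor), drives protein and lipid synthesis and holds back autophagy, and complex 2, built with Rictor, phosphorylates AKT-family kinases. Growth factors reach complex 1 through the small GTPase Rheb, which the TSC1-TSC2 complex holds inactive, while amino acids act through Rag GTPases at the lysosome. Ddit4 (REDD1) and the sestrins are stress-induced inhibitors of complex 1, and Deptor binds both complexes as an inhibitor. Overactive complex 1 is a known feature of cyst epithelium, and polycystin-1 has been linked to TSC2, whose gene lies next to Pkd1. These assays measured RNA and not kinase activity.

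In F4/80-high regions, mRNA of the kinase and of the sestrin Sesn2 was lower than in non-cystic regions, and mRNA of the inhibitors Ddit4 and Sesn1 was higher. These 4 genes are those of the 10 whose 6 F4/80-high libraries did not overlap the 6 non-cystic libraries, as was the case for 27.3% of all genes tested. The sequence upstream of their start sites is therefore shown, from RefSeq on GRCm38.p6, 5′ to 3′ on the gene's strand and without annotated exons. Capitals mark CCAAT on either strand (ATTGG on the other) and, in Ddit4, ACGTG.

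Mtor, chr4:148448332-148448581, plus strand: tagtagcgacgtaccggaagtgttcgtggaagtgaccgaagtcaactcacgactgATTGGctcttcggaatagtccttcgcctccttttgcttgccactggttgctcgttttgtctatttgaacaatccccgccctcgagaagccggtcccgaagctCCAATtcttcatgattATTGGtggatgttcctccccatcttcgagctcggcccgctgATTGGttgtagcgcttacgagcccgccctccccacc
Ddit4, chr10:59951835-59952020, minus strand: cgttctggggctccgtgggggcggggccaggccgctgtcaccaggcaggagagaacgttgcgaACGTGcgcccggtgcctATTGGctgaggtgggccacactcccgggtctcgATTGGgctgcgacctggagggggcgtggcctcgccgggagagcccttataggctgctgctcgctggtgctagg
Sesn1, second start, chr10:41887189-41887438, plus strand: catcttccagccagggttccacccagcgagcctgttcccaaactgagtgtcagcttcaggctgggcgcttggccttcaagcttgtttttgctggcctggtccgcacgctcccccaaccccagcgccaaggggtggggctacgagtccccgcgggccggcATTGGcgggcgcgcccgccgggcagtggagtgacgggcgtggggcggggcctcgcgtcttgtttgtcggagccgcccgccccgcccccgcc
Sesn2, chr4:132510502-132510706, minus strand: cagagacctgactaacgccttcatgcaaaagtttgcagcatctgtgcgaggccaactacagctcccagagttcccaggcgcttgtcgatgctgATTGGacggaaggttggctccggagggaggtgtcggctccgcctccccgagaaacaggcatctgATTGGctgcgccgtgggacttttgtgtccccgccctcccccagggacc

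The CCAAT box, the letters CCAAT on either strand, occurred in 33.8% of 32851 promoter windows of 250 bases, and 10.1% held 2 or more. The Mtor window held 4 matches, those of Ddit4 and Sesn2 held 2 each, and each of the Sesn1 starts held 1. ACGTG, the core of the hypoxia response element, occurred in 16.6% of windows. It matched once in Ddit4 and in Rptor, and on both strands in Rheb, where the matches overlap as CACGTG (an E-box, in 6.02% of windows). TGATGNAA, a form of the ATF4 response element found in 3.45% of windows, had no match in the windows of the 9 members with an entry. GGGCGG, the GC box, was in 32.7% of windows and in those of Mtor, Rictor, Rheb, Ddit4, Sesn1 and Sesn2. A match is a run of letters and not evidence of binding.

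Library totals were 5366651 to 9188813 counts. Mitochondrially encoded genes took 10.6 to 15.4% of counts in non-cystic libraries, 7.71 to 11.1% in F4/80-low libraries, and 1.49 to 4.06% in F4/80-high ones. The 12 macrophage markers summed to 128 to 177 CPM (counts scaled to a common library total) in non-cystic regions, 491 to 621 in F4/80-low regions, and 2662 to 6109 in F4/80-high ones (range over 3 kidneys), and 12 of 12 were higher in F4/80-high than in non-cystic regions. F4/80 set the region types, so this checks the labels and is not a finding. The 10 proximal tubule markers summed to 6957 to 9381, 4954 to 6719 and 285 to 1438 CPM, and 9 of 10 were lower. The 8 tubular injury markers summed to 1645 to 3335, 7983 to 47984 and 61709 to 84085 CPM, and 8 of 8 were higher. Spp1, 1 of these 8, weighs heavily in the sums, at 6.41 to 14.1% of all counts in F4/80-high libraries. In F4/80-low regions of kidney 2 it took 8.90% of counts in replicate 2 and 0.241% in replicate 1. Of 7 fibroblast and matrix markers tested 7 were higher, with summed levels of 63.8 to 86.9, 305 to 386 and 751 to 1536 CPM, of 7 lymphocyte markers 6 were higher, and of 5 thick ascending limb and 5 distal tubule markers 3 each were lower. No marker was at 0 in every library. These lists move with every F4/80-high result below, and their part in those results was not tested. In such bulk samples, fewer cells of a type and less RNA per cell cannot be told apart. Pkd1 had 24 to 79 counts in non-cystic libraries, 32 to 83 in F4/80-low libraries, and 48 to 141 in F4/80-high ones, and was not called in any comparison; counts over the whole gene do not check a deletion of part of its exons.

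CPM values below are scaled with trimmed mean of M values (TMM) factors and are means ± SD over 3 kidneys, each kidney's value being the sum of its pair of libraries. Fold changes are on the log2 scale with a standard error (SE) and a Benjamini-Hochberg adjusted p over all 16034 genes, from edgeR's quasi-likelihood test with the kidney as a block. A gene was called at an adjusted p below 0.05.

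Counted over the 10 genes, 6 were called in F4/80-high against non-cystic regions (2 higher, 4 lower), where 39.2% of all genes tested were called (19.7% higher and 19.5% lower). In F4/80-high against F4/80-low regions 4 were called (Mtor and Sesn2 lower, Ddit4 and Sesn1 higher), where 24.3% of all genes were. In F4/80-low against non-cystic regions 0 of 10 were called by edgeR, where 1.53% of all genes were (1.51% higher and 0.0249% lower); 2 had an unadjusted p below 0.05 (Ddit4 and Sesn2), and DESeq2 called 0. Libraries did not overlap for 4 of 10 between F4/80-high and non-cystic regions, against 27.3% of all genes, and for 2 of 10 (Mtor and Sesn1) between F4/80-high and F4/80-low regions, against 17% of all genes, and for 0 of 10 between F4/80-low and non-cystic regions, against 2.2%. The comparisons share groups and are not independent.

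**Figure D1:**
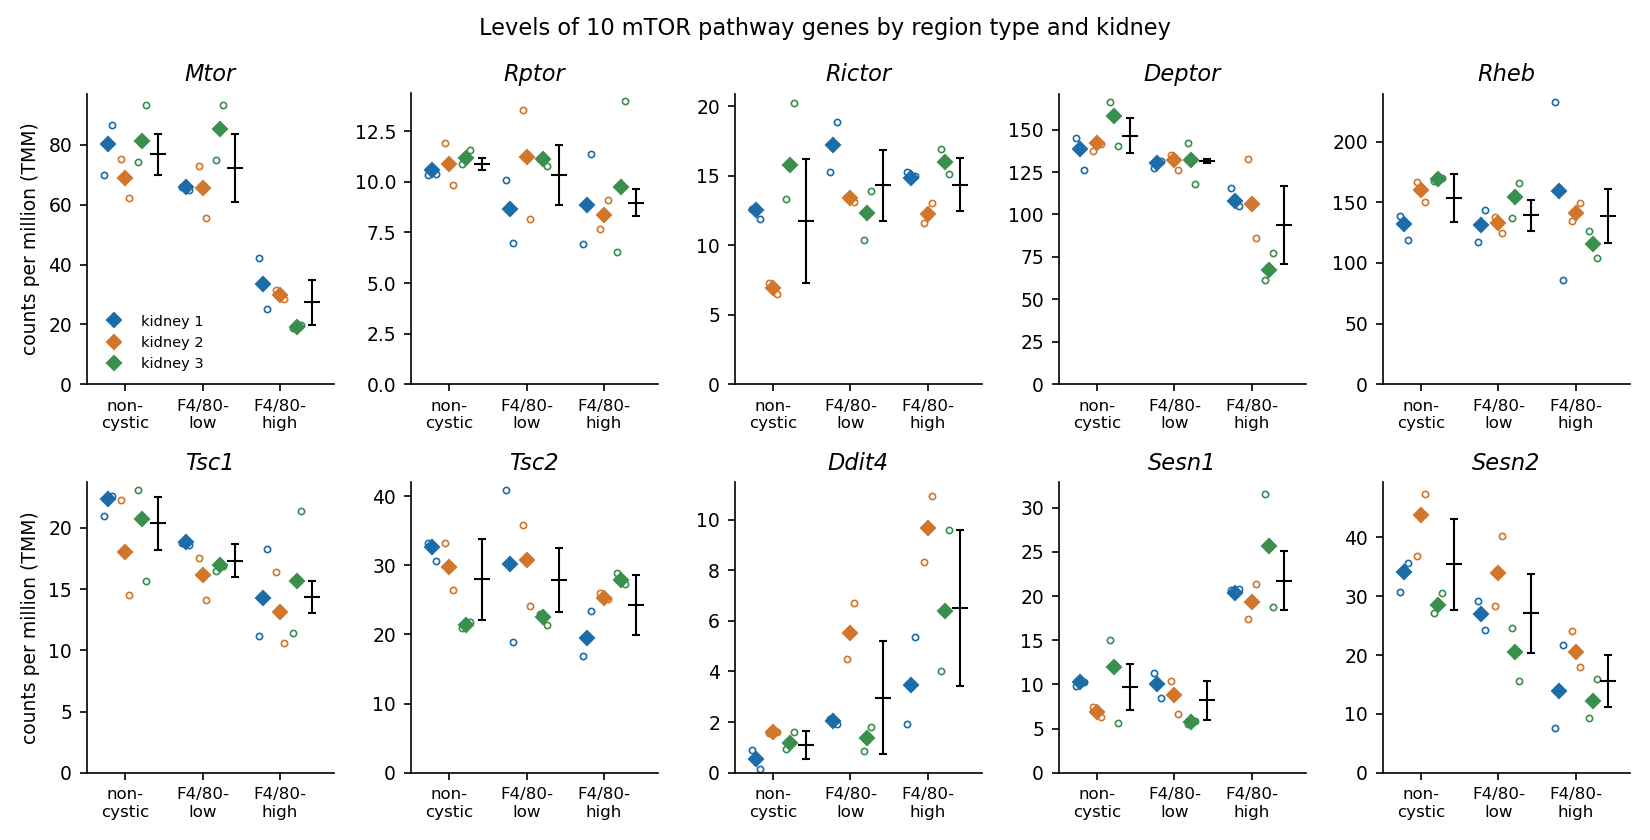
Level of each of the 10 genes (y axis, TMM-scaled CPM, from 0) by region type (x axis). Diamonds are kidneys, open circles their 2 libraries, and black bars the mean ± SD over 3 kidneys; Mtor in F4/80-high regions lies at 19.1 to 33.5 CPM, under all non-cystic and F4/80-low kidneys.

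Mtor, the kinase itself (chromosome 4, 148448611 to 148557683, GRCm38, plus strand), stood at 80.4, 68.9 and 81.2 CPM in non-cystic regions of kidneys 1, 2 and 3. It stood at 65.9, 65.7 and 85.4 CPM in F4/80-low regions, and at 33.5, 29.7 and 19.1 CPM in F4/80-high regions. All 6 F4/80-high libraries (18.8 to 42.3 CPM) were below all 6 non-cystic (62.3 to 93.4 CPM) and all 6 F4/80-low libraries (55.4 to 93.3 CPM). Mtor fell by 1.49 ± 0.23 (SE) on the log2 scale in F4/80-high against non-cystic regions, 2.81-fold, with an edgeR adjusted p of 0.00102. Against F4/80-low regions it fell by 1.41 ± 0.23 (edgeR adjusted p = 0.00329). Between F4/80-low and non-cystic regions the difference was -0.08 ± 0.22, with an edgeR adjusted p of 0.949.

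The defining partners of the complexes did not pass the test in any comparison. Rptor (chromosome 11, 119602905 to 119899576), the scaffold of complex 1, was at 10.9 ± 0.289 CPM in non-cystic regions, 10.3 ± 1.47 in F4/80-low regions, and 8.98 ± 0.688 in F4/80-high ones (SD, n = 3 kidneys). Its log2 fold change in F4/80-high against non-cystic regions was -0.28 ± 0.21 (SE), with an edgeR adjusted p of 0.310. The kidney sums of Rptor did not overlap there (8.37 to 9.72 against 10.6 to 11.2 CPM), whereas the libraries did (6.52 to 14.0 against 9.85 to 11.9 CPM). Of Rptor's 13471 exonic bases, 84 overlap the antisense gene Rptoros. Rictor (chromosome 15, 6708379 to 6800401), the scaffold of complex 2, was at 12.5, 6.95 and 15.8 CPM in the non-cystic regions of kidneys 1 to 3 and at 14.8, 12.3 and 16.0 CPM in the F4/80-high regions. These ranges overlap, and the log2 fold change was 0.33 ± 0.25 (edgeR adjusted p = 0.325). A p that misses the threshold does not show that levels were equal.

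The balance between the kinase and its partners can be read within a sum of libraries, free of any scaling. Per exonic base, Mtor had 9.40 ± 0.874 times the counts of Rptor in non-cystic regions, 9.40 ± 1.39 times in F4/80-low regions, and 4.13 ± 1.32 times in F4/80-high ones (SD, n = 3 kidneys). All 3 F4/80-high ratios, 5.04, 4.73 and 2.61, were below all non-cystic and F4/80-low ratios, of which the lowest was 7.79. Against Rictor the ratio was 12.0 ± 4.13, 8.74 ± 2.63 and 3.28 ± 1.11, and against Rheb 0.387 ± 0.0709, 0.395 ± 0.0245 and 0.149 ± 0.0198. A ratio shows unequal change of the pair of genes and not which of them changed.

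Deptor (chromosome 15, 55112317 to 55259271), the inhibitory subunit, was abundant. It stood at 139, 142 and 158 CPM in non-cystic regions, 130, 132 and 132 in F4/80-low regions, and 108, 106 and 67.4 in F4/80-high ones. The kidneys of F4/80-high regions lay below the others, but a single F4/80-high library (132 CPM) reached into the non-cystic range of 126 to 166 CPM. Deptor fell by 0.66 ± 0.21 (SE) on the log2 scale against non-cystic regions (edgeR adjusted p = 0.0320), most in kidney 3 (-1.23, against -0.36 and -0.42). The call was lost with upper quartile factors (edgeR adjusted p = 0.0529) and with the compared regions alone (0.0524), and with the libraries of number 1 alone (0.187). It was lost on leaving out any kidney (edgeR adjusted p of 0.0825 to 0.105) and, of 18 single libraries, on leaving out 3 (non-cystic kidney 1 replicate 1, F4/80-high kidney 1 replicate 2 and F4/80-high kidney 2 replicate 2; edgeR adjusted p of 0.0505 to 0.103). Relative to Mtor, per exonic base, Deptor went from 2.18 ± 0.198 in non-cystic regions and 2.10 ± 0.292 in F4/80-low regions to 3.93 ± 0.214 in F4/80-high regions. Of Deptor's 8874 exonic bases, 303 overlap the gene Gm9920, and reads there cannot be assigned without strand.

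**Figure D2:**
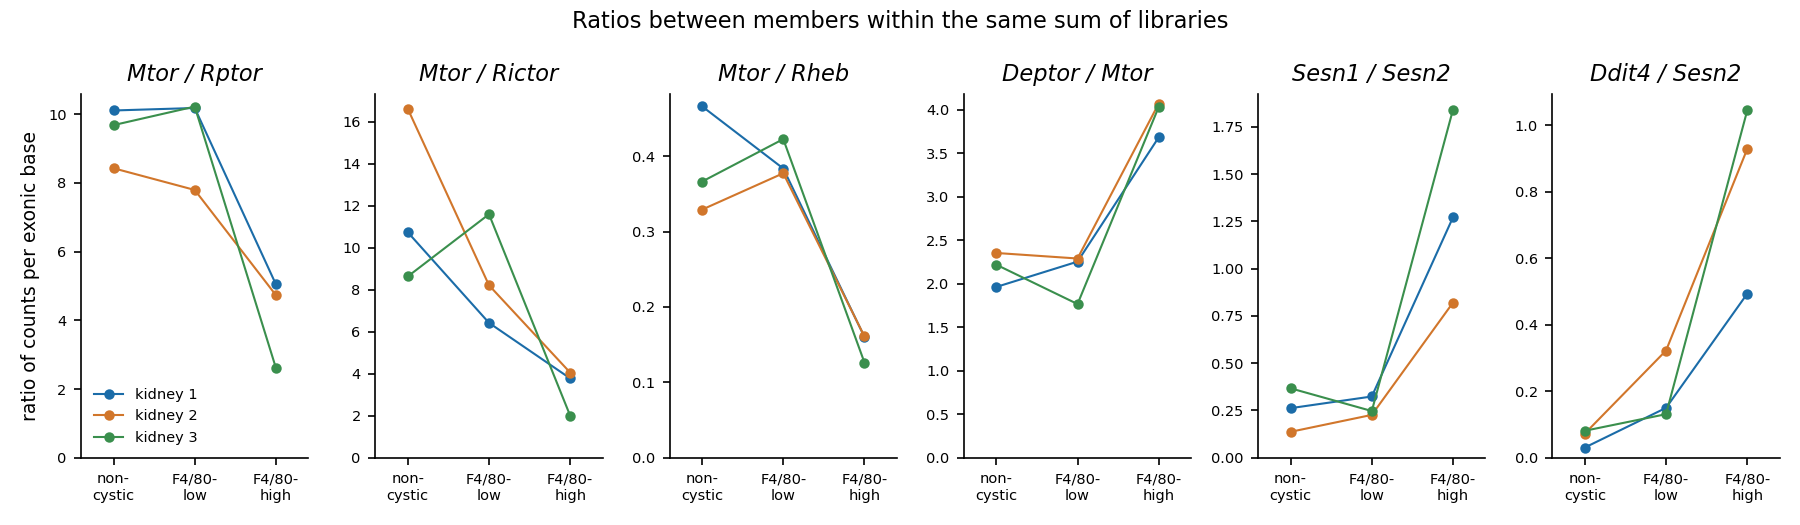
Ratios of counts per exonic base between pairs of the 10 genes (y axes, from 0) in the 3 region types (x axis), with a line for each kidney. Mtor to Rptor, Mtor to Rictor and Mtor to Rheb are lowest in F4/80-high regions in every kidney, and Deptor to Mtor, Sesn1 to Sesn2 and Ddit4 to Sesn2 are highest there.

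Rheb (chromosome 5, 24802823 to 24842624), the GTPase that switches complex 1 on, stood at 154 ± 19.6 CPM in non-cystic regions, 139 ± 12.8 in F4/80-low regions, and 139 ± 22.2 in F4/80-high ones (SD, n = 3 kidneys). Its log2 fold change in F4/80-high against non-cystic regions was -0.15 ± 0.21 (SE; edgeR adjusted p = 0.611). The pair of F4/80-high libraries of kidney 1 read 232 and 85.6 CPM, a 2.71-fold gap within a single kidney and the widest for this gene.

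Tsc1 and Tsc2 encode the complex that restrains Rheb. Tsc1 (chromosome 2, 28641228 to 28691167), which stabilizes the complex, stood at 22.4, 18.1 and 20.7 CPM in non-cystic regions, 18.8, 16.2 and 17.0 in F4/80-low regions, and 14.3, 13.1 and 15.7 in F4/80-high ones. The kidney sums did not overlap between F4/80-high and non-cystic regions, whereas the libraries did (10.6 to 21.4 against 14.5 to 23.1 CPM). Tsc1 fell by 0.50 ± 0.17 (SE) on the log2 scale (edgeR adjusted p = 0.0377). This call held in 15 of 34 alternatives. It was lost with DESeq2 (adjusted p = 0.0674) and, in edgeR, with upper quartile factors (adjusted p = 0.105), with no filter (0.0861), with the compared regions alone (0.0937), with the libraries of number 2 alone (0.715), and for 18 libraries with the kidney (0.0722) or kidney and number (0.0506) as a block. It was also lost without any kidney (edgeR adjusted p of 0.0603 to 0.195) and without 8 of 18 single libraries (0.0507 to 0.194). These were replicate 1 of non-cystic kidneys 2 and 3, F4/80-low kidney 1 replicate 2 and kidney 2 replicate 1, and, of F4/80-high regions, both of kidney 1, replicate 2 of kidney 2 and replicate 1 of kidney 3. Tsc2 (chromosome 17, 24595816 to 24632630), the catalytic partner, was at 27.9 ± 5.89, 27.9 ± 4.61 and 24.2 ± 4.29 CPM, and its log2 fold change was -0.18 ± 0.21 (edgeR adjusted p = 0.533). The 3 kidneys differed in direction for Tsc2, at -0.74, -0.23 and 0.38. Per exonic base, the ratio of Tsc1 to Tsc2 was 0.613 ± 0.156 in non-cystic regions, 0.515 ± 0.0933 in F4/80-low regions, and 0.491 ± 0.0909 in F4/80-high ones, and the kidneys overlapped, so no difference between these genes was shown. Of the exonic bases of Tsc2, 693 lie opposite those of Pkd1, so its counts are uncertain there.

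Ddit4 (chromosome 10, 59949669 to 59951834), which releases TSC2 from its inhibition under stress such as hypoxia, had the largest fold change of the 10 genes in F4/80-high against non-cystic regions. It stood at 0.530, 1.61 and 1.16 CPM in non-cystic regions, 2.04, 5.52 and 1.35 in F4/80-low regions, and 3.47, 9.65 and 6.41 in F4/80-high ones. Non-cystic libraries held 1 to 13 counts, so that baseline is imprecise, and F4/80-high libraries held 19 to 119. No F4/80-high library (lowest 1.94 CPM) reached down to the non-cystic ones (highest 1.60). Ddit4 rose by 2.56 ± 0.42 (SE) on the log2 scale, 5.88-fold (edgeR adjusted p = 0.00136), and in each kidney, at 2.45, 2.49 and 2.34. Such kidney values are differences of log2 CPM with a prior count of 2, which draws differences between low counts towards 0. Their closeness to each other is therefore uncertain. F4/80-low regions lay between the other groups: their difference from non-cystic regions was 1.36 ± 0.43 with an edgeR adjusted p of 0.209, at 1.72, 1.70 and 0.20 in the 3 kidneys. Without kidney 3 that difference was 1.83 with an edgeR adjusted p of 0.0371. Ddit4 rose by 1.19 ± 0.38 in F4/80-high against F4/80-low regions (edgeR adjusted p = 0.0475), a call lost without any kidney (0.115 to 0.163) and without 10 of 18 single libraries (0.0522 to 0.177). These were replicate 1 of each non-cystic kidney, replicate 2 of each F4/80-high kidney, and, of F4/80-low regions, replicate 2 of kidney 1, replicate 1 of kidney 2 and both of kidney 3. The call was also lost in edgeR with no kidney block (adjusted p = 0.159) and with the compared regions alone (0.0806). The same was so with the libraries of number 1 (0.296) or number 2 alone (0.0785), and the call held in 17 of 34 alternatives.

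The sestrins went in opposite directions. Sestrins hold back complex 1 through GATOR2 and AMPK, and Sesn2 is also a leucine sensor. Sesn1 (chromosome 10, 41809935 to 41908424) stood at 10.3, 6.88 and 12.0 CPM in non-cystic regions, 9.99, 8.80 and 5.79 in F4/80-low regions, and 20.3, 19.4 and 25.6 in F4/80-high ones. Every F4/80-high library (17.4 to 31.6 CPM) was above every non-cystic (5.68 to 15.1) and F4/80-low library (5.55 to 11.3). Sesn1 rose by 1.18 ± 0.27 (SE) against non-cystic regions (edgeR adjusted p = 0.00729) and by 1.39 ± 0.27 against F4/80-low regions (edgeR adjusted p = 0.00704). The first call was lost without kidney 1 or kidney 2 (edgeR adjusted p of 0.0550 and 0.0512) and the other without kidney 1 (0.0558). Both were lost with the libraries of number 1 alone (edgeR adjusted p of 0.0527 and 0.0522).

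Sesn2 (chromosome 4, 132492032 to 132510501) stood at 34.1, 43.7 and 28.4 CPM in non-cystic regions, 26.9, 33.9 and 20.5 in F4/80-low regions, and 13.9, 20.6 and 12.2 in F4/80-high ones. In every kidney the order was non-cystic, F4/80-low, F4/80-high. The F4/80-high libraries (7.55 to 24.1 CPM) lay under all non-cystic libraries (27.1 to 47.4 CPM). Sesn2 fell by 1.20 ± 0.15 (SE) on the log2 scale, 2.30-fold, against non-cystic regions (edgeR adjusted p = 0.000384), and by 0.81 ± 0.15 against F4/80-low regions (edgeR adjusted p = 0.00562). The latter call was lost without kidney 1 (edgeR adjusted p = 0.0666), on total counts (-0.32, edgeR adjusted p = 0.221) and with the libraries of number 2 alone (-0.46, edgeR adjusted p = 0.232). Against non-cystic regions, F4/80-low regions differed by -0.39 ± 0.15 (edgeR adjusted p = 0.311). Per exonic base, Sesn1 had 0.256 ± 0.115 times the counts of Sesn2 in non-cystic regions, 0.266 ± 0.0513 in F4/80-low regions, and 1.31 ± 0.511 in F4/80-high ones. The ratio of Ddit4 to Sesn2 went from 0.0616 ± 0.0270 through 0.201 ± 0.105 to 0.822 ± 0.290.

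**Figure D3:**
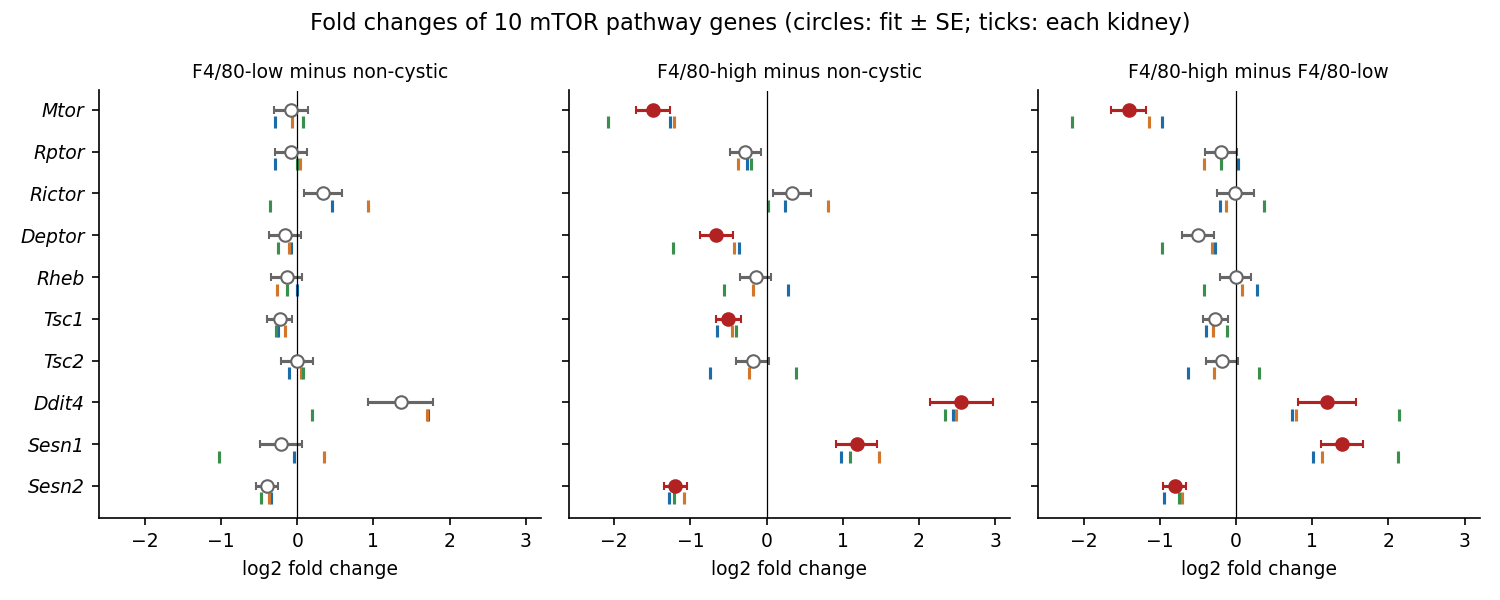
Log2 fold change (x axis) of the 10 genes in the 3 comparisons. Circles are fitted values ± SE, filled red at an adjusted p below 0.05, and ticks are the single kidneys (blue 1, orange 2, green 3); none is called in F4/80-low against non-cystic regions, 6 in F4/80-high against non-cystic and 4 in F4/80-high against F4/80-low.

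Levels can be ranked within a region type per exonic base, as TPM (length-scaled shares of a library). Rheb and Deptor were the highest of the 10 in all 3 region types, at 34.3 ± 7.02 and 28.0 ± 3.82 TPM in non-cystic regions (SD, n = 3 kidneys), where the 2 overlapped. In non-cystic regions Sesn2 (17.3 ± 3.90) and Mtor (13.1 ± 1.61) followed, then Tsc2, Sesn1, Tsc1, Rptor and Rictor, with Ddit4 lowest at 1.12 ± 0.573 TPM; Tsc2 overlapped Sesn1, Rptor overlapped Rictor, and Rictor overlapped Ddit4. In F4/80-high regions Rheb and Deptor were followed by Sesn1 (17.2 ± 5.57), Sesn2 (13.7 ± 2.11), Ddit4 (11.5 ± 4.95) and Mtor (8.20 ± 1.33), each overlapping the next.

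Scaling matters for the smaller changes. With total counts in place of TMM factors, the median log2 fold change of all genes in F4/80-high against non-cystic regions was 0.65 rather than 0.04, and calls split into 6608 higher and 1463 lower rather than 3156 and 3133. With upper quartile factors the median was 0.16 and the split 3621 to 2685. On total counts Mtor (-0.90), Sesn2 (-0.59), Ddit4 (3.16) and Sesn1 (1.80) kept their direction and call, whereas Deptor was at -0.06 and Tsc1 at 0.11, neither called, and Rictor was called at 0.95 (edgeR adjusted p = 0.0242). Measured from the median of all genes, these 3 changed little between TMM factors and total counts. Deptor was at -0.698 and -0.713, Tsc1 at -0.543 and -0.536, and Rictor at 0.290 and 0.296. In F4/80-high against F4/80-low regions the median was 0.52 on total counts and the split 4211 to 1120, and with upper quartile factors 0.16 and 2101 to 1855, against 1649 to 2246.

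**Figure D4:**
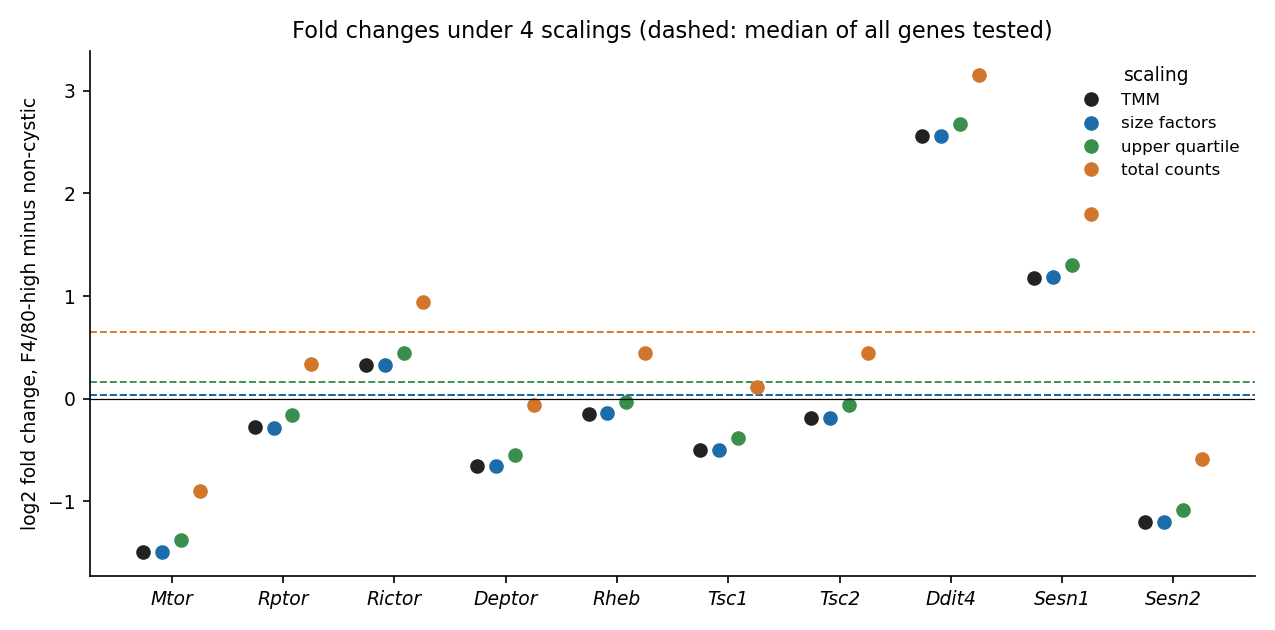
Log2 fold change in F4/80-high against non-cystic regions (y axis) of the 10 genes under 4 scalings (colours), with dashed lines at the median of all genes for each scaling. Mtor and Sesn2 lie under 0 and Ddit4 and Sesn1 above 0 under all 4, while Tsc1, Rptor, Rheb and Tsc2 cross 0 on total counts.

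The genes whose pattern over the 9 kidney and region sums was most like each called member are given as a description. For Mtor they were Sycp3, Abcd3 (a peroxisomal transporter) and Cat (catalase), each with a Pearson r of 0.995 or 0.996. For Deptor they were AC117816.1, A1cf and Atpaf1 (r of 0.986 to 0.994), for Sesn2 Eva1a, Gabarapl1 and Lhx1 (0.973 to 0.982) and for Tsc1 Sphk2, Sel1l and Galnt1 (0.945 to 0.979). For Ddit4 they were Kcnk1, Lgals3 and Ifi207 (0.961 to 0.967), and for Sesn1 Rmi1 and Tet3 (0.979 and 0.952). The points share kidneys and the region contrast.

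Another 130 genes of the pathway, its inputs and its targets were examined in 11 lists, all of them tested. In F4/80-high against non-cystic regions 13 were higher and 27 lower, with a median log2 fold change of -0.18, against 0.04 for all genes. That is 30.8% of the 130, below the 39.2% of all genes tested. The balance of directions turned over with the scaling, to 43 higher and 10 lower on total counts and 18 higher and 21 lower with upper quartile factors. All genes tested moved likewise, to 6608 higher and 1463 lower on total counts and 3621 higher and 2685 lower with upper quartile factors. In F4/80-high against F4/80-low regions 7 were higher and 18 lower, 19.2% against 24.3% of all genes. On total counts 27 were higher and 4 lower, beside 4211 and 1120 of all genes tested. In F4/80-low against non-cystic regions edgeR called 0 of 130, against 1.53% of all genes, and 15 had an unadjusted p below 0.05. DESeq2 called 4, and its share of all genes is not given here. The values that follow are for F4/80-high against non-cystic regions. There 19.7% of all genes tested were called higher and 19.5% lower, and no list was tested against these shares.

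Among 12 complex partners and relatives of the members (the relatives being Rhebl1, Ddit4l and Sesn3) 1 rose and 2 fell (median 0.01). Prr5, a subunit of complex 2, fell by 1.97 ± 0.21 (SE; edgeR adjusted p = 0.000202), from 40.6 ± 20.7 to 9.76 ± 2.19 CPM, and Mapkap1, another subunit of it, fell by 0.53 ± 0.16. Sesn3, another sestrin, rose by 0.80 ± 0.20. Of 13 Rag GTPase, Ragulator and lysosomal anchor genes 0 rose and 4 fell (median -0.23). Fnip2, a partner of folliculin, fell by 1.23 ± 0.19, and the Ragulator subunits Lamtor4 and Lamtor2 fell by 1.05 ± 0.21 and 1.03 ± 0.27. Of 14 GATOR, KICSTOR and amino acid sensor genes 0 rose and 6 fell (median -0.38), among them the arginine sensor Castor1 (fell by 1.39 ± 0.34), its relative Castor2 (fell by 0.96 ± 0.19) and the GATOR1 subunit Nprl2 (fell by 0.86 ± 0.18).

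Of the PI3K inputs, Pik3cd, the leukocyte-enriched catalytic subunit, rose by 2.36 ± 0.43, from 1.44 ± 0.546 to 8.07 ± 4.32 CPM, the regulatory subunit Pik3r1 rose by 1.06 ± 0.22, and the lipid phosphatase Inpp4b rose by 1.40 ± 0.31. The growth factor receptor Igf1r, named after its values were seen, fell by 0.80 ± 0.19, from 169 ± 8.66 to 98.5 ± 22.1 CPM (edgeR adjusted p = 0.00863), but was not called on total counts (0.333). Of 9 AMPK and LKB1 genes 0 rose and 1 fell (median -0.06): Prkaa2, a catalytic subunit of AMPK, fell by 2.16 ± 0.31, from 105 ± 12.9 to 24.2 ± 9.93 CPM. Stk11 (-0.40 ± 0.15) and Prkag2 (-0.51 ± 0.22) did not pass. Of 18 substrates and effectors 2 rose and 4 fell (median -0.22). The lipid regulator Lpin1 fell by 1.36 ± 0.17, Eif4ebp2, a translation repressor, by 0.82 ± 0.17 and Larp1, which binds mRNAs of the translation machinery, by 0.81 ± 0.15. The risers, named after their values were seen, were Eef2k (1.72 ± 0.39) and Eif4ebp1 (0.74 ± 0.26).

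Target lists were mixed. Those for ATF4, SREBP, HIF and glucocorticoids also held the genes of the regulators themselves (Atf4, Srebf1, Srebf2, Hif1a and Nr3c1). Their counts and medians include these genes. Of 14 ATF4 targets 2 rose and 3 fell (median -0.40): the serine synthesis enzyme Phgdh rose by 2.49 ± 0.38 and the proline synthesis enzyme Aldh18a1 by 2.24 ± 0.43, while the mitochondrial one-carbon enzyme Shmt2 fell by 2.47 ± 0.24, from 90.1 ± 21.2 to 16.4 ± 5.12 CPM. Of 11 SREBP targets 0 rose and 2 fell (median -0.11), Hmgcs1 of the cholesterol pathway by 1.85 ± 0.26 and Insig1 by 0.97 ± 0.31; Srebf2 was at -0.46 ± 0.20 and did not pass. Of 10 HIF targets 1 rose and 2 fell (median -0.25). Hexokinase Hk2 rose by 4.99 ± 0.75, from 6 counts over all non-cystic libraries to 307 in F4/80-high ones. Scaled to total counts rather than with TMM factors, the count ratio was 51.1 (95% counting interval 23.2 to 140). Carbonic anhydrase Car9 fell by 1.89 ± 0.39 and the mitophagy gene Bnip3 by 1.40 ± 0.34.

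Of 8 p53 targets 3 rose and 0 fell (median 0.62). Phlda3, which represses AKT, rose by 3.40 ± 0.46 and the cell cycle inhibitor Cdkn1a by 3.07 ± 0.62. Eda2r had 3 counts over all non-cystic and 159 over all F4/80-high libraries. Scaled to total counts, the ratio was 52.9 with a 95% counting interval of 17.8 to 259.2. Of 7 glucocorticoid targets 0 rose and 2 fell (median -0.22), Klf9 by 1.32 ± 0.20 and Fkbp5 by 0.53 ± 0.14, and the kinase Sgk1 was at -0.50 ± 0.24. On total counts, Castor1, Castor2, Nprl2, Lamtor2, Insig1, Larp1 and Eif4ebp2 were no longer called (edgeR adjusted p of 0.0799 to 0.445), and Mapkap1 (0.09) and Fkbp5 (0.07) were above 0 and not called. Bnip3, Car9, Cdkn1a, Eef2k, Hmgcs1, Prkag2, Shmt2 and Stk11 overlap an exon of another gene.

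**Figure D5:**
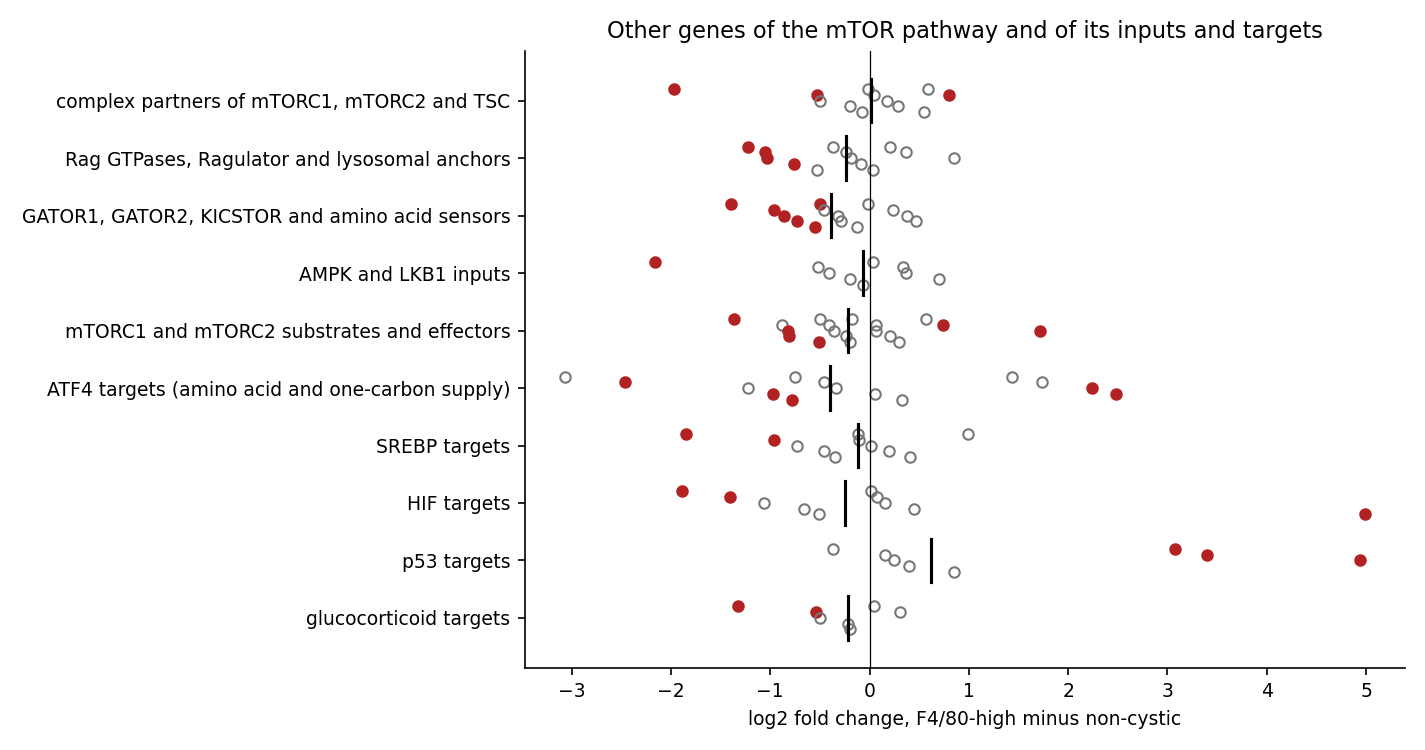
Log2 fold change in F4/80-high against non-cystic regions (x axis) of the other pathway genes in 10 of the 11 lists (y axis; vertical offset only separates points). Red points are called, open points are not, and black bars are list medians, which run from -0.40 for ATF4 targets to 0.62 for p53 targets.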

How the data were processed

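The authors deposited unnormalized counts for each gene in 18 libraries. Per the submitters' processing notes, FastQC 0.11.9, fastp 0.20.1 and HTSeq 0.11.0 were used with mm10 (GRCm38); their roles, the aligner and how strand was handled in counting: not given in the sources used here. Per the labels, a low-input kit was used; it does not mark strand. Symbols, positions and exonic lengths came from GENCODE vM21, promoters from RefSeq. Both libraries from a region type in a kidney were added up (9 sums), filtered with filterByExpr and fitted in R 4.3.3 with edgeR 4.0.16 (TMM, robust quasi-likelihood, kidney as block, 4 residual degrees of freedom); the kidney pairs the regions because they come from the same organ (correlations of deviations within a kidney: -0.154 to 0.275). The SE was taken as |log2 fold change| divided by √F. Alternatives, 34 in all, included DESeq2 1.42.0 and limma 3.58.1. The test was run on simulated data first. Intervals cover counting error only. The members and lists were chosen with earlier results of these data known. All members are named; per pathway list, up to 3 genes with the smallest p in F4/80-high against non-cystic regions; and per called member the 3 genes with the highest correlation (mean log2 CPM of at least 3, no Gm or Rik names). Some genes that this rule names, and the counts of 1 list, are not reported here.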

Additional observations from a re-analysis of the deposited data

Results flagged for a closer look

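In 1 of 30 groups of 6 libraries (10 genes in 3 region types) a library stood apart from the rest of its group; chance gives about 1 in 20. Sesn1 was at 31.6 CPM in F4/80-high kidney 3 replicate 1, while the other 5 F4/80-high libraries read 17.4 to 21.3 CPM. The gap was 0.724 of the group's range, over Dixon's critical value of 0.625.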

How the results depend on the processing

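Of 1020 fold changes of the members under alternatives, 892 kept direction and side of the threshold and 69 changed sign. Without a change of sign, 53 lost the call and 6 gained it. Tsc1 in F4/80-high against non-cystic regions both changed sign and lost its call on total counts (0.11, edgeR adjusted p = 0.687). Mtor, Ddit4 and Sesn2 in F4/80-high against non-cystic regions, and Mtor against F4/80-low regions, were called under all 34 alternatives. Alternatives reuse the same libraries, and 18 of them only leave out 1 library, so they are not independent. The edgeR fits on 18 libraries treat both libraries of a kidney and region type as replicates, though the kidney is the unit of replication. The cause of the changes below was not tested.

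Members called were 6 in F4/80-high against non-cystic regions, 3 to 6 on leaving out a kidney or library (3 without kidney 1 or 2), and 4 against F4/80-low regions, 1 to 5 likewise (1 without kidney 1) and 2 with the libraries of number 1 or of number 2 alone. In F4/80-low against non-cystic regions they were 0 to 1. List genes called in F4/80-high against non-cystic regions were 40, 19 to 42 on leaving out (19 without kidney 1), and 25 with number 1 alone. Against F4/80-low regions they were 25, 4 to 32 on leaving out (4 without kidney 1), 46 for 18 libraries with the kidney as block, 45 with limma voom, 16 with the compared regions alone, 11 with number 1 and 16 with number 2. In F4/80-low against non-cystic regions they were 0, 0 to 2 on leaving out, 2 without a filter, 4 with DESeq2, 6 for 18 libraries, and 1 with limma voom, without the block or with the compared regions alone. All genes called moved with the setting too: in F4/80-high against non-cystic regions 6289 of 16034, and 8071 on total counts. Shares of all genes under the leave-outs and other fits are not given here. The counts by setting therefore do not set members or list genes apart from other genes.

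With kidney and number as a replicate block over 18 libraries, list genes called were 4 in F4/80-low against non-cystic and 43 in F4/80-high against F4/80-low regions, and members called 0, 5 and 5 in the 3 comparisons; with no replicate block members called were 0, 6 and 3. Numbers within a kidney did not pair libraries (correlations of -0.0945 to 0.114).

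On total counts, F4/80-low against non-cystic values were 0.025 (Mtor), 0.038 (Rptor) and 0.14 (Tsc2), F4/80-high against non-cystic 0.33 (Rptor), 0.45 (Rheb), 0.11 (Tsc1) and 0.45 (Tsc2), and F4/80-high against F4/80-low 0.30 (Rptor), 0.46 (Rictor), 0.48 (Rheb), 0.21 (Tsc1) and 0.31 (Tsc2). In F4/80-high against F4/80-low regions, Rictor and Rheb were at 0.021 and 0.021 with size factors, 0.11 and 0.11 with upper quartile factors, 0.037 and 0.042 with the stricter filter, 0.021 and 0.021 with DESeq2, 0.034 and 0.030 for 18 libraries, and 0.15 and 0.32 with number 1. Rictor was at 0.044 with the replicate block, 0.056 with limma voom, 0.0040 with no replicate block and 0.012 with the compared regions alone. In F4/80-low against non-cystic regions Tsc2 was at 0.0097 without a filter, 0.0022 with the stricter filter, 0.0055 with the compared regions alone and 0.19 with number 1, and Rptor at 0.063 with number 1. With number 1 Rheb was at 0.048 in F4/80-high against non-cystic regions. With number 2 Rptor was at 0.064 there and at 0.39 against F4/80-low regions, where Tsc2 was at 0.22.

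On leaving out a kidney or library, F4/80-low against non-cystic values ran from -0.23 to 0.020 (Rptor), -0.22 to 0.16 (Tsc2) and -0.50 to 0.15 (Sesn1). F4/80-high against non-cystic values ran from -0.49 to 0.071 (Tsc2) and -0.45 to 0.053 (Rheb), and F4/80-high against F4/80-low values from -0.17 to 0.095 (Rictor), -0.45 to 0.019 (Tsc2) and -0.32 to 0.20 (Rheb). Depth limits Ddit4 most, with 1 to 13 counts in non-cystic libraries.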
